A study of Mus musculus with 19 samples.

Results

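Liver RNA of mice given 25 mg/kg dibenz[a,h]anthracene was set against liver RNA of mice given 6.25 mg/kg, a dose 4 times lower, to ask what grows with dose among exposed animals. The arrays were chosen by their dose labels alone, 5 at each dose, so 10 of the 19 arrays of the study entered the comparison. All animals were male, 10 weeks old, of the transgenic mouse strain labelled 40.6, and gave a part of the liver 3 days after exposure. The 5 unexposed controls and the 4 animals at 12.5 mg/kg are of the same strain, age and sex and appear below as levels beside the comparison. The red channel carried the liver RNA and the green channel a commercial universal mouse reference made from 11 cell lines, so every level given here is a log2 ratio of liver over reference. A difference is the level at 25 minus that at 6.25 mg/kg on that log2 scale, fitted with the slide as a block. The labels do not tie samples to animals beyond their own numbers, so p-values measure the spread between these samples. Fewer cells of a type and less RNA per cell cannot be told apart in such tissue samples.

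Dibenz[a,h]anthracene is a polycyclic aromatic hydrocarbon. Compounds of this family bind the aryl hydrocarbon receptor (AhR), a transcription factor that pairs with ARNT and switches on the Cyp1 enzymes, and those enzymes turn the compound into products that react with DNA. DNA damage in turn stabilises p53, which drives genes of arrest, repair and cell death. Liver is the main organ of this metabolism, and its transcripts also follow the circadian clock, feeding and pulses of growth hormone.

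No gene passed the test between the doses. Of 26210 probes tested, 0 (0%) had an adjusted p under 0.05 in limma, and the smallest adjusted p was 0.393. At an unadjusted p under 0.05 stood 1540 probes (5.88%), of which 685 (2.61%) were higher and 855 (3.26%) lower at 25 mg/kg. The brightest probe of each gene gave 12970 genes. Of these, 841 (6.48%) stood at that unadjusted level, 367 (2.83%) were higher and 474 (3.65%) lower. By size, 131 (1.01%) differed by over 1.5-fold and 26 (0.200%) by over 2-fold. A gene's 95% interval lay wholly inside 2-fold either way for 12705 of the 12970 genes (98.0%), and wholly inside 1.5-fold for 11864 (91.5%). The values below are therefore measured levels and differences with their errors, and none of them is a called change.

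**Figure D1:**
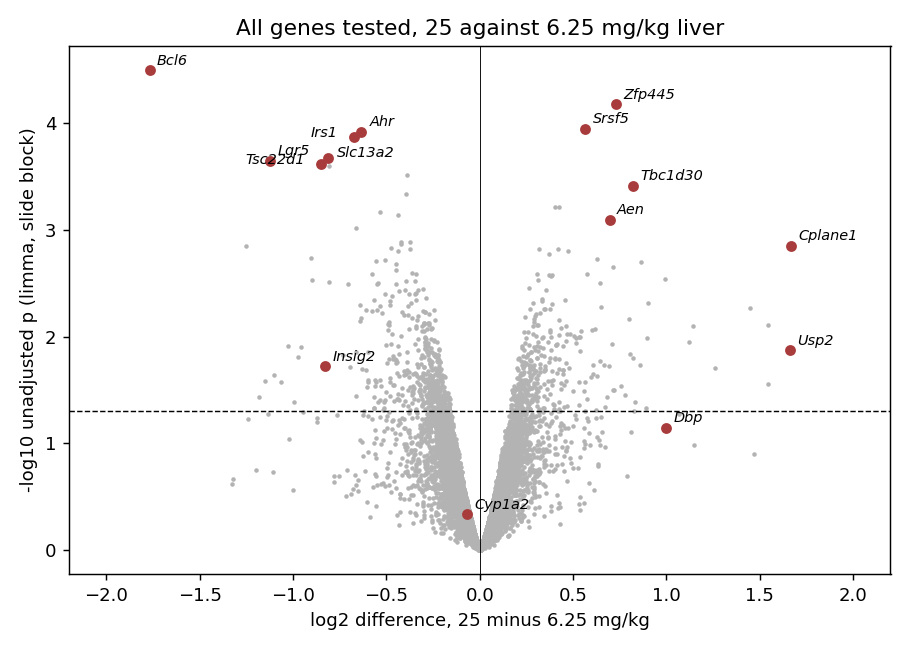
Each grey point is 1 of the 12970 genes, with the log2 difference between 25 and 6.25 mg/kg on the horizontal axis and -log10 of limma's unadjusted p on the vertical axis; the dashed line marks an unadjusted p of 0.05 and the red points are labelled genes. Bcl6 stands farthest to the lower side and highest at -1.77, while Cplane1 and Usp2 stand at 1.67 and 1.66.

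The arrays separated by slide first. Slide accounted for 98.8% and dose for 0.011% of the leading principal component, which carried 43.4% of the variance over the 10 arrays. Dose accounted for 35.0% of the third component, itself 9.77% of the variance. Each slide carried the same number of arrays of both doses (1 and 1 on slide 1, 2 and 2 on slides 2 and 3), and the block lowered the median standard error from 0.143 to 0.101. Between 39.7 and 56.3% of an array's spots stood clear of background in the liver channel, with a mean of 47.8% ± 6.42 at 25 and 48.3% ± 4.81 at 6.25 mg/kg (SD, n = 5 each). That share did not pass a two-sided exact permutation test within slides (p = 0.75, smallest possible 0.0278). All 12 hepatocyte markers were above background on all 10 arrays. On the array of 6.25 mg/kg replicate 4, on slide 2, skeletal muscle transcripts stood apart. Tnni2, a fast muscle troponin named after its values were seen, read 4.75 there and -2.48 to -1.99 on the other 9. The array of 6.25 mg/kg replicate 5, on slide 1, stood apart in clock genes.

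Among genes with lower levels at 25 mg/kg, Bcl6 led. It encodes a zinc finger repressor that is male-biased in liver and that growth hormone, acting through STAT5, holds down. Its level was 1.53, 1.10, 1.93, 2.20 and 2.85 on the 5 arrays at 6.25 mg/kg and 0.02, -0.85, 0.42, 0.25 and 0.92 on the 5 at 25 mg/kg. The highest value at 25 mg/kg lay under the lowest at 6.25 mg/kg, which 47 genes (0.362%) showed in either direction. The mean was 1.92 ± 0.67 at 6.25 and 0.15 ± 0.65 at 25 mg/kg (SD, n = 5 each), a difference of -1.77 ± 0.26 (SE; adjusted p = 0.393), or 3.40-fold. It was -1.51, -1.72 and -1.94 on slides 1, 2 and 3. At 12.5 mg/kg the 4 arrays fell into a low pair, at 0.02 and -0.10, and a high pair, at 1.90 and 1.15.

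Cish and Socs2, feedback inhibitors that STAT5 induces after a growth hormone pulse, were among the genes with the widest spread between animals of the same dose and were named after their values were seen. Cish read -1.68 and -1.03 on 2 arrays at 6.25 mg/kg, both on slide 3, and 2.32 to 4.30 on the other 3. At 25 mg/kg its 5 values lay between 2.58 and 3.50. Its difference was 1.47 ± 0.88 (adjusted p = 0.892) and that of Socs2 was 1.15 ± 0.65 (adjusted p = 0.877), with intervals of -0.48 to 3.42 and -0.28 to 2.58. The 2 arrays with the lowest Cish had the highest Bcl6, at 2.20 and 2.85. The other 3 at 6.25 mg/kg, with Cish at 4.30, 2.32 and 3.94, read Bcl6 at 1.53, 1.10 and 1.93. Those values also lay above all 5 at 25 mg/kg, of which the highest was 0.92. The part of Cish and Socs2 in the level of Bcl6 was not tested.

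The promoter of Bcl6 is shown because STAT5 binds elements of the form TTCNNNGAA, in capitals here. The window is the 250 bases before the gene's start in RefSeq, on the minus strand at chr16:23988853-23989102 of GRCm38.p6, and holds 1 match on either strand.
Bcl6: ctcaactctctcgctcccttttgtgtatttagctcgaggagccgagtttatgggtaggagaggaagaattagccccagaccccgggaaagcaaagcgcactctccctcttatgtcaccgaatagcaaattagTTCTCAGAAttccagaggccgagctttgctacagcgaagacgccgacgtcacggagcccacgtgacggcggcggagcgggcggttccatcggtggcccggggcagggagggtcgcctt
RefSeq lists another start of Bcl6, whose window holds 3 matches. The window of Cish holds 0. Over all 10359 tested genes with a promoter in that table, 7.44% hold the motif in such a window. A match is a description of the letters, not a site.

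Ahr, the receptor that the compound binds, was lower at the higher dose. Its level was 0.55, 1.01, 0.67, 1.07 and 1.30 at 6.25 mg/kg and -0.06, -0.03, 0.33, 0.45 and 0.73 at 25 mg/kg. The groups overlapped in these values, and did not overlap once each slide was centred, as for 346 genes (2.67%), 137 of them higher (1.06%) and 209 lower (1.61%). The difference was -0.64 ± 0.11 (adjusted p = 0.443), with -0.61, -0.70 and -0.60 on the 3 slides. The 12.5 mg/kg arrays had a mean of 0.19 and the controls 0.50, so with slide adjusted for the controls (0.53) lay between 6.25 mg/kg (0.88) and 25 mg/kg (0.24).

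Of 23 genes in the AhR list, 3 were higher and 1, Ahr itself, lower at an unadjusted p under 0.05, beside 2.83% higher and 3.65% lower of all genes. In the list 14 lay above 0 and the median was 0.05, against 47.6% and -0.01 over all genes. Without slide 1 the counts were 4 higher and 1 lower, and without 6.25 mg/kg replicate 4 they were 2 and 1. Over all 12970 genes they were 535 and 459 in the first setting and 317 and 428 in the second. Cyp1a2, the main Cyp1 enzyme of resting liver, had a mean of 5.29 ± 0.51 at 6.25 and 5.22 ± 0.54 at 25 mg/kg (SD, n = 5 each). Its difference was -0.07 ± 0.09, with a 95% interval of -0.26 to 0.12. Tiparp, an ADP-ribosyltransferase induced by the receptor and acting back on it, stood at 0.03 with an interval of -0.29 to 0.36, and at -0.11 on its other probe. Cyp1b1 stood at -0.12 with an interval of -0.40 to 0.15, though it was above background on 4 arrays at 6.25 and 2 at 25 mg/kg. Cyp1a1 and Ahrr, the receptor's own repressor, were above background on 0 of the 10 arrays, so a level cannot be compared. Among the higher genes, Lrat, which stores retinol as esters, stood at 0.46 and the flavin monooxygenase Fmo2 at 0.66. On slide 1 the difference was -0.07 for Lrat and -0.38 for Fmo2.

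Irs1, the adaptor that carries the insulin signal, varied little at the higher dose. It read 0.17, 0.12, 0.03, 0.06 and 0.18 at 25 mg/kg and 0.62, 0.84, 0.37, 1.10 and 0.99 at 6.25 mg/kg, with no overlap. The difference was -0.67 ± 0.12 (adjusted p = 0.443). A second, dimmer probe stood at -0.31 but was above background on 4 arrays at 6.25 and 1 at 25 mg/kg. Its level at 25 mg/kg was thus mostly not clear of background. At 12.5 mg/kg the mean was 0.10. Lgr5, a receptor for R-spondins in the Wnt pathway that marks hepatocytes around the central vein, stood at -1.12 ± 0.21 (adjusted p = 0.551), or 2.18-fold. Its 5 values at 6.25 mg/kg ran from 2.39 to 3.58 with a median of 2.91, and those at 25 mg/kg from 1.0 to 2.70 with a median of 1.75. Tsc22d1, a leucine zipper protein, stood at -0.85 on its brightest probe and -0.85 on another, with no overlap between the doses on the brightest. Slc13a2, a citrate and succinate carrier, stood at -0.82, with 1 of the 5 values at 25 mg/kg missing.

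The remaining lower genes among the 10 of smallest p were Rtn4rl1 (a Nogo receptor family member, -0.81), Akap13 (a kinase anchor protein, -0.54), Gas7 (-0.40) and Plekha1 (a phosphoinositide-binding adaptor, -0.39). Gas7 was above background on 5 arrays at 6.25, 1 at 12.5 and 3 at 25 mg/kg. Plekha1 varied little between animals. Its 5 values ran from -1.54 to -1.39 at 6.25 mg/kg and from -1.91 to -1.74 at 25 mg/kg, with no overlap. All 10 lower genes had a lower level at 25 mg/kg on each of the 3 slides, as did 1800 of the 12970 genes (13.9%). A choice by smallest p on these same arrays favours agreement between slides, so that count is no test.

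Higher at 25 mg/kg by smallest p were Zfp445, Srsf5, Tbc1d30, Lacc1, Angpt2, Aen, Cplane1, Sh2b2, Zpr1 and Acaca. Zfp445, a zinc finger protein that guards genomic imprints, stood at 0.73 ± 0.12 (adjusted p = 0.436). It read 1.57, 0.94, 0.39, 0.36 and 0.45 at 6.25 mg/kg and 2.02, 1.56, 1.40, 1.30 and 1.09 at 25 mg/kg. The overlap came from the slide 1 array at 6.25 mg/kg, the highest of its group. Srsf5, a splicing factor, read -1.01, -0.60, -0.73, -0.55 and -0.64 at 6.25 mg/kg and -0.26, -0.19, 0.11, -0.28 and -0.08 at 25 mg/kg, with no overlap. Its difference was 0.57 ± 0.10 (adjusted p = 0.443).

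Aen, a nuclease that p53 induces, read -0.33, -0.56, -0.38, -0.05 and -0.66 at 6.25 mg/kg and 0.49, 0.49, -0.06, 0.06 and 0.54 at 25 mg/kg. The difference was 0.70 ± 0.15 (adjusted p = 0.809), with 0.82, 0.68 and 0.65 on the 3 slides, and 0.72 on a second probe. Aen and Cplane1 were picked earlier for their difference between 25 mg/kg and control, which uses the same 25 mg/kg arrays, so their direction here is not independent of that. Cplane1, a ciliogenesis gene, stood at 1.67 ± 0.39 (adjusted p = 0.841), but its 3 probes did not read alike, with 1.04 and -0.10 on the others. At 6.25 mg/kg 4 of its values lay between -1.15 and -0.84 and the fifth at 0.76, and at 25 mg/kg 4 lay between 0.68 and 1.96 and the fifth at -0.54. Angpt2, a ligand of the endothelial Tie2 receptor, stood at 0.43 and Sh2b2, an adaptor of insulin and cytokine receptors, at 0.42, both with no overlap between the doses. Angpt2 was above background on 3 arrays at 6.25, 1 at 12.5 and 5 at 25 mg/kg. Tbc1d30 stood at 0.82, Lacc1 at 0.40 and Zpr1 at 0.32. All 10 higher genes had a higher level at 25 mg/kg on each slide, as did 1376 of the 12970 genes (10.6%). Here too the choice by smallest p favours agreement between slides, so the count is no test.

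**Figure D2:**
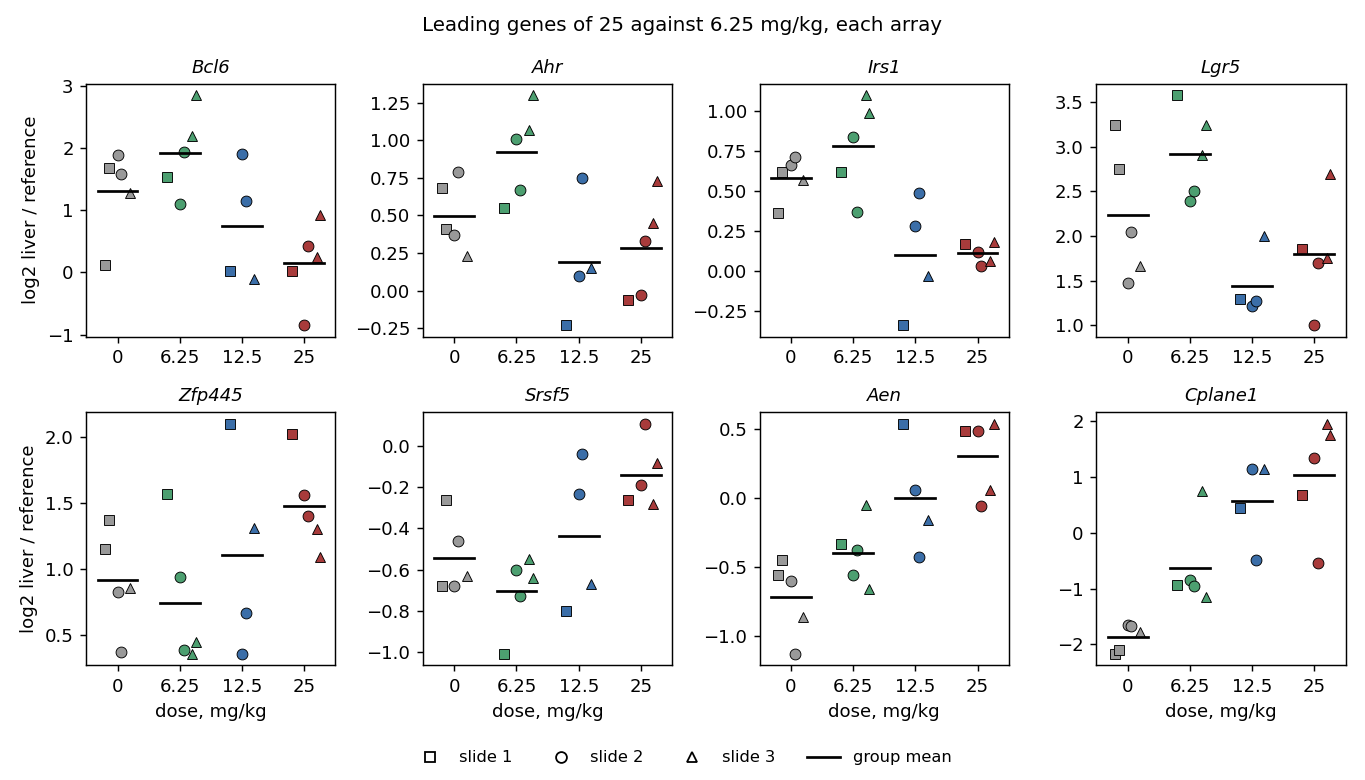
Each panel plots the log2 level of liver over reference on every array against dose in mg/kg, with control at 0, the slide as the marker shape and the group mean as a line. The 5 Bcl6 values at 25 mg/kg lie between -0.85 and 0.92, under all 5 at 6.25 mg/kg, while the 12.5 mg/kg values divide, and Aen and Cplane1 have their lowest mean in controls.

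The middle dose and the controls were not part of the choice of these 20 genes. After adjustment for slide, the 12.5 mg/kg level lay between the other doses for 17 of the 20, against 3374 of all 12970 genes (26.0%) and 548 of the 841 genes with an unadjusted p under 0.05 (65.2%). Wide gaps leave more room for a middle value, so these counts describe the genes and are no test. The control level lay between the doses for 14 of the 20, against 57.2% of those 841 genes and 25.2% of all genes. It lay beyond 6.25 mg/kg for 6, against 33.3% and 41.6%, and beyond 25 mg/kg for 0, against 9.51% and 33.2%. A wide gap also leaves more room for the control level, so these counts are no test either. A single order from control through 6.25 and 12.5 to 25 mg/kg held for 5 of the 20: Plekha1, Gas7, Tbc1d30, Aen and Cplane1. It held for 188 of the 841 genes with an unadjusted p under 0.05 (22.4%) and for 1241 of all genes (9.57%). For Aen the slide-adjusted levels were -0.73, -0.35, 0.04 and 0.35, and for Cplane1 -1.77, -0.68, 0.63 and 0.98.

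A slope over the 14 exposed animals, which shares 10 arrays with the comparison, gave 0 of 26210 probes with an adjusted p under 0.05 in limma, and 1335 (5.09%) at an unadjusted p under 0.05. The smallest adjusted p was 0.157, for a probe of a transcript with no gene symbol, which read 0.42 to 0.81 at 6.25, 0.43 to 1.13 at 12.5 and 0.85 to 1.42 at 25 mg/kg. Beside genes already given, the rule named Rab38 (a small GTPase, difference -0.51), Tmem140 (-0.55) and Pdgfrl (-0.45) from this slope. No other probe's slope had an adjusted p under 0.955.

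Clock genes differed in size and sign from slide to slide. In the clock, BMAL1 (encoded by Arntl) and CLOCK activate the Per, Cry, Rev-erb and D-box genes through E-boxes, and the products feed back. Of 23 clock genes tested, 4 were higher and 3 lower at an unadjusted p under 0.05, 15 lay above 0 and the median was 0.20. Over all genes 2.83% were higher, 3.65% lower and 47.6% above 0. The higher ones were Bhlhe40 (0.99), Usp2 (1.66), Wee1 (0.89) and Nr1d2 (0.35), and the lower ones Clock (-0.45), Rora (-0.28) and Nfil3 (-0.60). The smallest adjusted p of a member was 0.844. Wee1, Rora, Per1, Per3, Tef, Ciart and Cipc are named here after their values were seen. Usp2, Dbp, Nr1d2 and Nfil3 were chosen from the 25 mg/kg arrays against control, so the direction of those 4 is not independent.

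Usp2, a deubiquitinase with a strong daily rhythm, read 2.87 on the slide 1 array at 6.25 mg/kg and -0.86 to 0.97 on the other 4, against 1.69 to 3.26 at 25 mg/kg. Dbp, a D-box activator driven directly by BMAL1 and CLOCK, read 2.70 on that same 6.25 mg/kg array and -0.82 to 1.31 on the other 4, against 0.53 to 2.70 at 25 mg/kg. Arntl, which runs opposite to them and was named after its values were seen, read -2.25 on that array and -0.34 to 1.38 on the other 4, against -2.01 to -0.19 at 25 mg/kg. On that array Usp2 and Dbp lay within the range at 25 mg/kg and Arntl under it. Of the other 4 arrays at 6.25 mg/kg, 0 lay within that range for Usp2, 2 for Dbp and 1 for Arntl. Dbp differed by 1.0 ± 0.50 with an interval of -0.10 to 2.10, and Arntl by -1.13 ± 0.52 with an interval of -2.29 to 0.02.

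The median of the 23 clock genes was -0.29 on slide 1, 0.20 on slide 2 and 0.29 on slide 3. With slides 2 and 3 alone, a setting added after seeing the data, 10 clock genes were higher and 3 lower at an unadjusted p under 0.05, against 535 higher and 459 lower of 12970 genes. Usp2 then stood at 2.34 ± 0.44 (adjusted p = 0.443), Wee1, a kinase that holds back mitosis, at 1.42 ± 0.26 (adjusted p = 0.439), Dbp at 1.32 and Arntl at -1.70. Without 6.25 mg/kg replicate 4, the array with muscle transcripts, 2 clock genes were higher and 2 lower, against 317 and 428 of 12970 genes. The labels used here give no hour of sampling.

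**Figure D3:**
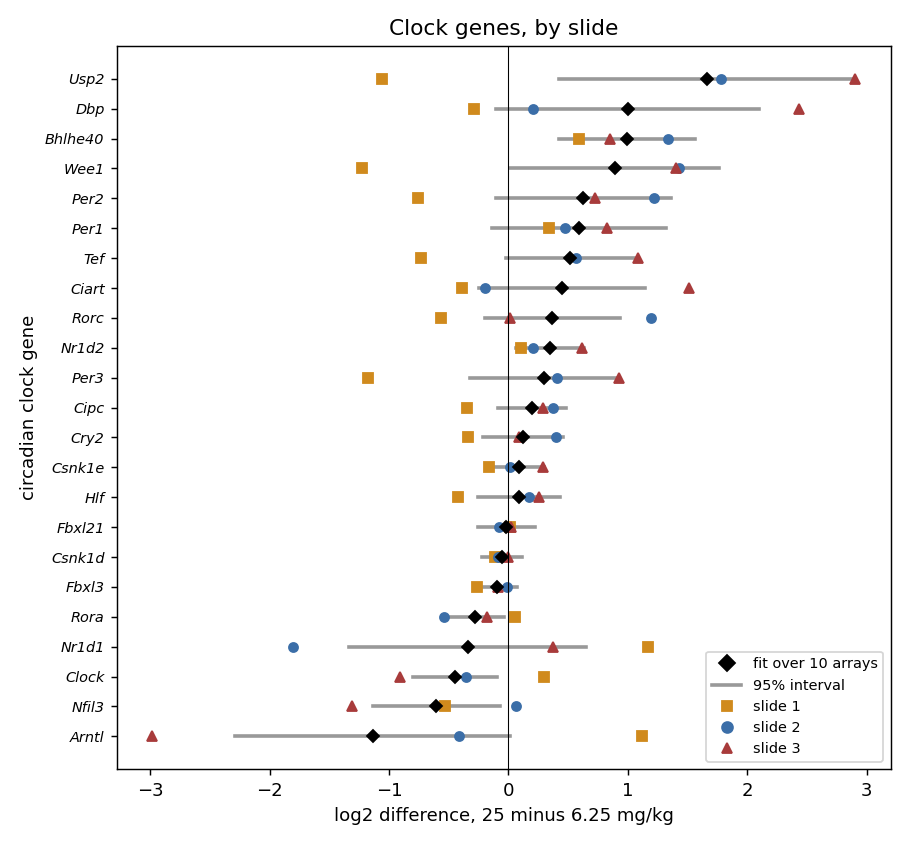
For each of 23 clock genes, the diamond is the fitted log2 difference between 25 and 6.25 mg/kg, the grey bar its 95% interval, and the squares, circles and triangles the differences on slides 1, 2 and 3. Usp2, Wee1, Per3 and Arntl lie on opposite sides of 0 on slide 1 (-1.06, -1.22, -1.18 and 1.12) and on slide 3 (2.90, 1.40, 0.93 and -2.98).

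The promoters of 3 clock genes with an E-box are shown, since an E-box is where BMAL1 and CLOCK bind. Each is the 250 bases before a start in RefSeq (GRCm38.p6), with CACGTG in capitals. Ciart, a repressor of the clock, lies on the minus strand at chr3:95882229-95882478 with 3 matches. Per1, a repressor that dampens BMAL1, lies on the plus strand at chr11:69098699-69098948, and the window of its other start holds 0 matches. Tef, a D-box activator, lies on the plus strand at chr15:81802423-81802672.
Ciart: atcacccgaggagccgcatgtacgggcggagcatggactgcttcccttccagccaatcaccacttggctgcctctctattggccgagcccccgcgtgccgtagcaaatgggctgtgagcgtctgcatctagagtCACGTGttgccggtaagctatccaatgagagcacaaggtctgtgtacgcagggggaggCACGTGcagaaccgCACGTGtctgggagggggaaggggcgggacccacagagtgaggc
Per1: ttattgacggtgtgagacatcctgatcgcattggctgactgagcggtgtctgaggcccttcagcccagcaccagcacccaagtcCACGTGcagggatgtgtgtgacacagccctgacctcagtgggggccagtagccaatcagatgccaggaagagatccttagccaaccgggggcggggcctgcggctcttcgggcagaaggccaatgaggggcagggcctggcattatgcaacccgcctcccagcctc
Tef: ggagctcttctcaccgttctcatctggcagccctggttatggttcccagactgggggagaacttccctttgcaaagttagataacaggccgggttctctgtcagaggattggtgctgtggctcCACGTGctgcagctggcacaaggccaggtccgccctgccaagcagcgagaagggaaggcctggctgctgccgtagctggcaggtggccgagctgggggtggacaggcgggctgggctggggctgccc
Of the 17 clock genes in the table, 4 hold the motif, Ciart, Per1, Tef and Cipc (in 1 of its 2 windows), which is 23.5%, against 9.52% of the 10359 tested genes in it. The window of Dbp held none. The differences were 0.45 for Ciart, 0.59 for Per1 and 0.52 for Tef, and on slide 1 they were -0.39, 0.34 and -0.74.

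Beyond the clock, the same slide 1 array stood apart in Insig2 and Chka, both picked earlier at 25 mg/kg against control. Insig2, which holds the sterol sensor in the endoplasmic reticulum, read 0.60 on that 6.25 mg/kg array and 2.45 to 2.92 on the other 4, against 1.27 to 2.04 at 25 mg/kg. Its difference was -0.83 ± 0.30 (adjusted p = 0.844) and without slide 1 it was -1.25 (adjusted p = 0.317). Chka, a choline kinase, read -0.79 on that array and 0.02 to 0.63 on the other 4, with a difference of -0.52. Klf13, a zinc finger transcription factor, stood at 0.38 with an interval of -0.03 to 0.79.

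Most targets of p53 stood slightly higher at 25 mg/kg. Of 32 tested, 26 (81.3%) lay above 0, where 47.6% of all genes did, with a median of 0.07. The list is described here, not tested. At an unadjusted p under 0.05, 5 were higher and 1 lower, beside 2.83% higher and 3.65% lower of all genes. The 5 were Aen, Tnfrsf10b (a death receptor, 0.52), Dglucy (0.34), Ephx1 (an epoxide hydrolase that acts on polycyclic hydrocarbons, 0.29) and Phlda3 (an inhibitor of Akt, 0.56), and the lower one was Sesn1 (-0.20), Phlda3 and Sesn1 being named after their values were seen. All 5 were higher on each of the 3 slides, as were 9 of the 32 and 1376 of all 12970 genes (10.6%). Lower on each slide were 1 of the 32 and 1800 of all genes (13.9%). The 5 were picked by p on these same arrays, which favours agreement between slides, so that count is no test. Cdkn1a, the arrest gene p21, named after its values were seen, stood at 0.64 ± 0.36, with 1 animal at 6.25 mg/kg at -0.98 and the other 4 at -3.70 to -2.64. Mdm2, the negative regulator of p53, likewise named, stood at 0.05 with an interval of -0.15 to 0.26. Without slide 1, 25 of 32 lay above 0, and without the array with muscle transcripts 26 did. In those settings 49.8% and 48.1% of all genes lay above 0.

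DNA repair genes differed little. Of 27 nucleotide excision repair genes, which remove the bulky adducts of such compounds, 0 were higher and 1, the damage sensor partner Cetn2 (-0.26), lower at an unadjusted p under 0.05. Their differences ran from -0.36 to 0.16 with a median of 0.03. Of 20 translesion and recombination genes, 2 were higher, Fancc (0.25) and Rad52 (0.26), and 0 lower. Among 33 cell cycle genes, the mitotic genes Aurka (-0.18) and Ube2c (-0.20) were lower and 0 higher, with Ube2c at -0.10 on its other probe. That list had 0 higher and 0 lower without 6.25 mg/kg replicate 4, and 1 and 0 without slide 1. Without slide 1 the excision repair list had 0 and 0 and the translesion list 4 and 0. These counts stand beside 2.83% higher and 3.65% lower of all genes.

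Fatty acid synthesis genes had a median of 0.21 over 27 genes. It was the highest of the 24 process lists, but not without slide 1, where it was 0.20 and the clock list 0.33, nor without 6.25 mg/kg replicate 4, where they were 0.11 and 0.17. Where 2.83% of all genes were higher and 3.65% lower at an unadjusted p under 0.05, 7 of the 27 were higher and 0 lower. They were both acetyl-CoA carboxylases, Acaca (0.47) and Acacb (0.53), the glycolytic enzyme Pklr (0.62), the lipid droplet hydrolase Pnpla3 (0.61), the phosphatidate phosphatase Lpin1 (0.69), the elongase Elovl6 (0.63) and the last enzyme of triglyceride synthesis, Dgat2 (0.23), the last 3 being named after their values were seen. Acaca read 0.73, 1.19, 1.23, 0.80 and 1.05 at 6.25 mg/kg and 0.97, 2.13, 1.66, 1.27 and 1.35 at 25 mg/kg, and its other 2 probes each stood at 0.13. The highest values came from the 2 arrays at 25 mg/kg on slide 2, which also read 3.97 and 3.56 for Elovl6 against 1.92 to 2.42 on the other 3. By slide the median was -0.07, 0.33 and 0.11. Pnpla3 was above background on 2 arrays at 6.25 and 5 at 25 mg/kg, and differed by -0.07, 1.41 and 0.14 on slides 1, 2 and 3. Elovl3, an elongase with a daily rhythm in male liver, stood at -0.95. It read 2.03 on the array of 25 mg/kg replicate 4, 4.41 to 4.92 on the other 4 of that dose and 4.52 to 5.35 at 6.25 mg/kg. Without that array it stood at -0.43, with Agilent's processed signals at -0.26, and on slide 1 at 0.28. Without 6.25 mg/kg replicate 4, 4 of the 27 were higher and 0 lower, against 317 and 428 of all 12970 genes.

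Stress and sterol lists are given as counts at an unadjusted p under 0.05, a level at which 2.83% of all genes were higher and 3.65% lower. In the amino acid stress and CHOP list, 0 of 24 were higher and 3 lower: Ddit3, which encodes CHOP (-0.34), Asns, asparagine synthetase (-0.90), and Vldlr (-0.48). Vldlr was above background on 4 arrays at 6.25, 0 at 12.5 and 3 at 25 mg/kg. In the heat shock list, 0 of 23 were higher and 3 lower: Hspa1a (-0.96), Dnajb1 (-0.58) and Dnajb4 (-0.30). The list median was -0.09, 0.22 and -0.38 on slides 1, 2 and 3, and Hspa1a differed by 0.12 on slide 2. For unfolded protein response genes 18 of 25 lay under 0 with a median of -0.12, but the median was 0.47 on slide 1 and -0.55 on slide 3, and 1 gene, Xbp1, was higher (0.56). Of 26 cholesterol synthesis genes, 0 were higher and 3 lower, Sc5d (-0.34), Insig2 and Mvk (-0.31, and -0.13 on its other probe). The list median was -0.02, with 0.15, 0.11 and -0.43 on slides 1, 2 and 3. On slide 1 Insig2 differed by 0.84 and Mvk by 0.34. Immediate early genes had 0 of 24 higher and 2 lower, Gadd45g (-1.10) and Klf2 (-0.19). Without slide 1 the counts of higher and lower genes were 2 and 5 for amino acid stress, 1 and 3 for heat shock, 1 and 4 for the unfolded protein response, 0 and 5 for cholesterol synthesis and 0 and 1 for immediate early genes. Without 6.25 mg/kg replicate 4 they were 1 and 2 for amino acid stress, 0 and 4 for cholesterol synthesis and 0 and 0 for immediate early genes. For all 12970 genes the counts were 535 and 459 without slide 1, and 317 and 428 without that replicate.

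Asns read -4.29, -4.79, -4.02, -5.01 and -4.12 at 6.25 mg/kg and -5.78, -5.48, -4.63, -5.24 and -5.61 at 25 mg/kg. The ranges overlap by 2 arrays at 6.25 mg/kg and 1 at 25 mg/kg. Gadd45g, a stress gene, was high on 3 arrays at 6.25 mg/kg (0.47, 0.15 and 0.53) and at -2.60 and -2.58 on the other 2, whereas all 5 at 25 mg/kg lay between -2.20 and -1.52.

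Zonation, sex and xenobiotic lists were mixed. Genes are called higher or lower at an unadjusted p under 0.05, as were 2.83% and 3.65% of all genes, and 47.6% of all lay above 0. Of 23 pericentral genes, 16 lay under 0 with a median of -0.08. There, Lgr5, the ornithine aminotransferase Oat (-0.49) and the vasopressin receptor Avpr1a (-0.49) were lower and the tight junction gene Cldn2 (0.22, and 0.10 on its other probe) was higher. Of 26 periportal genes, Apoa4 (0.48) was higher and Etnppl (-0.58) lower, with a median of 0.00. Apoa4 differed by 1.34 on slide 1 and by 0.25 and 0.27 on slides 2 and 3, and without slide 1 it stood at 0.26 with an interval of -0.03 to 0.56. Female-biased genes had 4 of 21 higher, among them Fmo2, Slc16a5 (0.78) and Trim24 (0.40), 0 lower and a median of 0.11. On slides 1, 2 and 3 that median was -0.07, 0.18 and 0.18. On slide 1 the difference was -0.38 for Fmo2, -0.98 for Slc16a5 and -0.49 for Trim24. Male-biased genes had 1 of 24 higher, Igfals (0.24), and 2 lower, Bcl6 and C8a (-0.49). Among CAR and PXR targets Alas1, the first enzyme of heme synthesis, was higher (1.54 ± 0.47, adjusted p = 0.844) and 0 of the other 26 were higher or lower at that level. Alas1 read 4.76 on the slide 1 array at 6.25 mg/kg and 1.27 to 3.31 on the other 4, against 2.74 to 5.33 at 25 mg/kg, and its other probe stood at 0.83. Without slide 1, 3 CAR and PXR targets were higher and 0 lower. The female-biased list had 2 higher without 6.25 mg/kg replicate 4, and the pericentral list 1 higher and 5 lower. All 12970 genes gave 535 higher and 459 lower without slide 1, and 317 and 428 without that replicate.

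The other lists held few members past an unadjusted p of 0.05, a level at which 2.83% of all genes were higher and 3.65% lower. Nrf2 targets had 1 of 29 higher (Ephx1) and a median of 0.05, PPAR alpha targets 1 of 32 lower (Cpt2, -0.23), and bile acid genes 1 of 24 lower (Nr5a2, -0.43, and -0.18 on its other probe). Glucose metabolism had 2 of 29 higher, Pklr and the phosphofructokinase regulator Pfkfb3 (1.12), and 1 lower, Irs1. Interferon stimulated genes had 1 of 29 higher, Irgm2 (0.38), and 3 lower, Oas2 (-0.29), Rsad2 (-0.30) and Irf1 (-0.30). Of 32 acute phase genes 0 were higher and 0 lower. MicroRNA processing genes had 2 of 23 higher, Gemin4 (0.38) and Tut4 (0.25), and 1 lower, Tnrc6a (-0.20). The other probe of Tut4 stood at -0.06. Without slide 1 the counts of higher and lower genes were 4 and 2 for glucose metabolism, 1 and 3 for PPAR alpha targets, 1 and 1 for Nrf2 targets, 1 and 1 for bile acid genes, 1 and 2 for interferon, 1 and 0 for acute phase and 2 and 0 for microRNA processing. Without 6.25 mg/kg replicate 4 they were 0 and 0 for PPAR alpha targets, 0 and 2 for bile acid genes, 1 and 2 for interferon, 1 and 0 for acute phase and 2 and 0 for microRNA processing. For all 12970 genes the counts were 535 and 459 without slide 1, and 317 and 428 without that replicate.

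**Figure D4:**
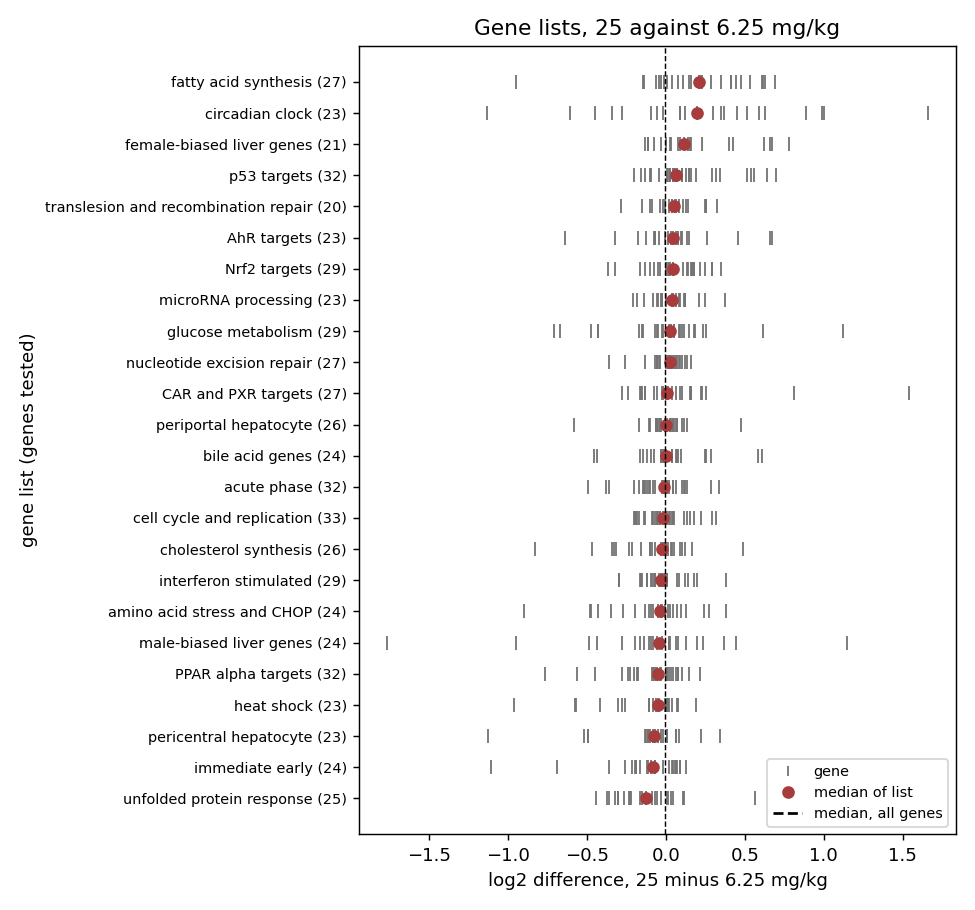
Each row is a process list with its number of genes tested; ticks are the genes' log2 differences between 25 and 6.25 mg/kg, red points their medians, and the dashed line the median of all 12970 genes at -0.01. List medians run from -0.12 for the unfolded protein response to 0.21 for fatty acid synthesis, while single members reach -1.77 (Bcl6) and 1.66 (Usp2).

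Markers of other liver cells were read beside these lists. Over all genes 47.6% lay above 0, and 2.83% were higher and 3.65% lower at an unadjusted p under 0.05. Of 13 macrophage markers 12 lay under 0 with a median of -0.08, though the median was 0.10 on slide 1, -0.50 on slide 2 and 0.12 on slide 3. Without 6.25 mg/kg replicate 4, 9 of 13 lay under 0 with a median of -0.04, and without slide 1 the median was -0.15. Their mean level ran from 2.46 to 2.79 at 6.25 and from 1.85 to 2.83 at 25 mg/kg. Of 14 endothelial markers 11 lay under 0 with a median of -0.08, and 1, Dnase1l3 (-0.40), was lower at an unadjusted p under 0.05, as was 1 of 5 neutrophil markers, S100a9 (-0.51). These and Fabp4 are named after their values were seen. Of 15 stellate cell and fibroblast markers 1, Lrat, was higher. Of 12 lymphocyte markers tested 9 lay under 0, and 5 of the 17 on the array were above background on 0 of the 10 arrays. Of 17 pancreas markers 7, and of 12 neutrophil markers 6, were above background on none. All 4 adipose markers tested lay under 0 (median -0.31), and Fabp4 (-0.34) was lower at that level. Their mean level ran from 0.08 to 1.04 at 6.25 and from -0.14 to 0.17 at 25 mg/kg. The part of these cells in the differences above was not tested.

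The spread between samples of the same dose was wide beside the differences between doses. The median residual SD of a gene was 0.16, and the median size of its difference 0.08. The residual SD is the spread of single arrays, and the median standard error of a difference was 0.101. Of the 10 genes of widest spread, named after their values were seen, 6 are muscle genes (Tnni2, Tnnc2, Myh2, Cox6a2, Fabp3 and Pgam2), each highest on the array of 6.25 mg/kg replicate 4. There Myh2, a myosin heavy chain, read 6.35, against 0.14 to 2.68 on the other 9. Cish had the third widest spread, and Moxd1 ran from 0.52 to 6.17 within 6.25 mg/kg. Without that array Bcl6 and Ahr kept their sign, as under all 22 settings tried, with Bcl6 between -1.97 and -1.58. Of the 116 named genes, only 4 changed sign in any setting. The settings reuse the arrays by which Bcl6 and Ahr were chosen, so a kept sign is no test.

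**Figure D5:**
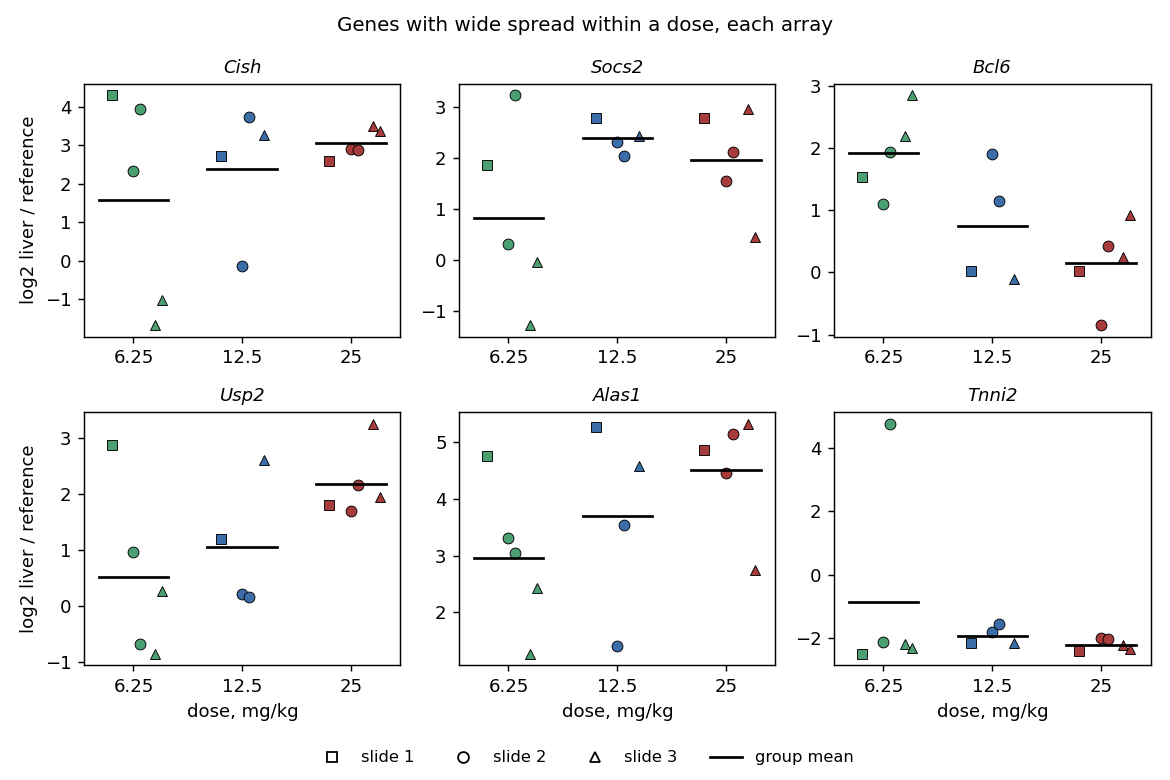
Each panel plots log2 levels of liver over reference on the 14 exposed arrays against dose in mg/kg, with the slide as the marker shape and the group mean as a line. Cish is low on 2 arrays at 6.25 mg/kg (-1.68 and -1.03), Usp2 and Alas1 are high on the slide 1 array of that dose (2.87 and 4.76), and Tnni2 is high on a single array (4.75).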

How the data were processed

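Liver RNA (red, Cy5) and a pooled reference RNA (green, Cy3) of 19 samples were hybridised to Agilent mouse arrays, from 200 ng of RNA per sample, per the labels' protocols. The deposited scanner files give red and green intensity per spot as median pixel brightness per the file headers, which name Feature Extraction 10.7.3.1 as the software, with flags for spots well above background. The deposited table holds log2 ratios whose making is not given in the sources used here; its scale and direction follow from correlations of 0.993 to 0.996 with loess ratios computed from the scanner files without background subtraction. Replicate numbers are names in accession order and pair nothing. The samples carry separate numbers in the labels.

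Intensities were corrected with normexp (offset 50) and loess in limma 3.58.1 under R 4.3.3. Outlier-flagged spots were set to missing and spots of a probe averaged. A probe was kept when over a share of 0.5 of its spots was flagged as above background for the liver RNA on 5 or more of the 10 arrays, with at least 4 values per dose; a probe with 1 missing value was fitted on the rest. The fit held dose and slide (6 residual degrees of freedom), with Benjamini-Hochberg adjustment over 26210 probes, two-sided. Slide 1 was scanned 7 days after the others. The number of arrays limits the precision. Symbols came from RefSeq accessions (GRCm38.p6, names only; 47.4% of 55681 probes). A gene was its brightest kept probe.

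Named were the 10 genes of smallest p each way, the 4 of smallest p in each of 24 process lists, the 5 each way of the dose slope, 9 genes known from 25 mg/kg against control and 5 AhR genes; others are said to be named after their values were seen. Of the genes this rule names, 1 is not reported here. The members, lists and rules were chosen with earlier results of these data known. The fit was tested on simulated data.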

Additional observations from a re-analysis of the deposited data

Results flagged for a closer look

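Within groups of 5 arrays, 70 groups were examined (33 genes and the array shares of spots above background). In 8 of them an array's gap to the nearest other was large for the group's range by Dixon's criterion. Chance flags about 1 group in 20 where slides do not differ in level. The values were not centred on slide, and slide 1 holds 1 array of each dose, so that share does not apply to them. At 6.25 mg/kg, the array of replicate 5 on slide 1 stood apart in Tbc1d30 (2.77, nearest 1.57), Gas7 (-2.47, nearest -1.87), Lacc1 (-0.81, nearest -0.09) and Insig2 (0.60, nearest 2.45), and in the share of reference spots above background (75.4%, nearest 63.8%). At the same dose, replicate 1 on slide 3 stood apart in Cplane1 (0.76, nearest -0.84) and replicate 4 on slide 2 in Nr1d2 (0.85, nearest 1.21). At 25 mg/kg, replicate 2 on slide 3 stood apart in Insig2 (2.04, nearest 1.44). The slide 1 array at 25 mg/kg read 2.99 for Tbc1d30, -2.81 for Gas7 and -0.57 for Lacc1. Its share of reference spots above background was 73.8%. The slide 1 flags at 6.25 mg/kg in those measures can thus stand for the slide. For Insig2 that 25 mg/kg array read 1.44.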

How the results depend on the processing

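With every alternative run, 0 probes passed in limma between the doses, the smallest adjusted p ranging from 0.105 (without 25 mg/kg replicate 2) to 0.9999 (no slide term), and 0 passed for the dose slope. The count at an unadjusted p under 0.05 was 1540 and became 502 with no slide term and 2993 with no filter on dim probes; each array left out in turn gave 1125 to 1791, and slides 2 and 3 alone 1785. For the slope the count was 1335, and became 487 with no slide term, 2577 with no filter and 966 to 1697 with each array left out. Because slide 1 holds 1 array of each dose, leaving out either leaves out the slide under the block. Scaling by Aquantile leaves log ratios as they are by construction; scaling them to one spread, added after seeing the data, gave 1447. Of 116 named genes, 4 changed sign somewhere: Baat was 0.13 and Cyp3a11 0.12 with Agilent's processed signals, Cyp3a11 was 0.12 as the mean of its probes, Cyp1a2 was 0.0249 in the deposited table, and Tiparp was -0.0406 as the mean of its probes and -0.0744 to 0.216 with each array left out, below 0 without 6.25 mg/kg replicate 2 or 3 or 25 mg/kg replicate 3 or 4. The cause was not tested. No paired analysis was possible because the labels give every sample a number of its own.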
